A study of Homo sapiens with 8 samples.

Results

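The liver X receptor (LXR) target genes MYLIP, LPCAT3, PLTP and APOE and the sterol transfer gene GRAMD1C were followed on 8 whole-transcript arrays of human liver-derived cell lines, 2 arrays in each of 4 groups. Each gene was taken by its symbol in the platform annotation, which gave 5 genes with 1 probe set apiece among 14884 named genes. The genes were selected with the differences on these arrays known, so their values are given as a description with no test. In LX2 cells given CM272, the LXR targets MYLIP, PLTP and APOE were higher than in LX2 control cells on all arrays, by 0.96, 0.51 and 0.40 on the log2 scale, and LPCAT3 was higher by 0.21. APOE was dim in LX2, with log2 values from 4.25 to 4.86. GRAMD1C was lower there, with a log2 difference of -1.19, a 2.28-fold lower level. In HepG2 cells given CM272 the largest difference among the 5 was that of LPCAT3, at 0.37 (log2).

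The groups were LX2 with CM272, LX2 control, HepG2 with CM272 and HepG2 control. LX2 is an immortalised human hepatic stellate cell line, and HepG2 comes from a human hepatocellular carcinoma. CM272 blocks G9a, which methylates histone H3, as well as DNMT1, which maintains DNA methylation, and it was given at 400 nM for 48 h. Control cells of both lines received 0.1% DMSO by their description, although their treatment tag reads none. No DMSO content was recorded for the cells given CM272. LX2 cells were kept in 2% fetal bovine serum and HepG2 cells in 10%, so a difference between the lines and one between the serum levels cannot be told apart. The labels leave unsaid whether replicate arrays had cultures of their own, so p-values measure the spread between these samples, which may be technical. Each group is 1 cell line, and in such bulk RNA fewer cells of a type and less RNA per cell cannot be told apart.

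LXRs are nuclear receptors that sense oxysterols and switch on genes for sterol export and lipid remodelling. MYLIP, also called IDOL, is an E3 ubiquitin ligase that sends lipoprotein receptors for degradation. LPCAT3 puts polyunsaturated fatty acids into membrane phospholipids, PLTP moves phospholipids between lipoprotein particles, and APOE is the apolipoprotein by which remnant particles bind their receptors. GRAMD1C, or Aster-C, belongs to a family that carries cholesterol from the plasma membrane to the endoplasmic reticulum at sites where both membranes meet. Cells with abundant sterol activate LXR, while cells short of it activate SREBP2, the transcription factor for cholesterol synthesis and uptake.

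The windows around the annotated starts of MYLIP, APOE and GRAMD1C are shown because the CpG dinucleotide is the substrate of DNMT1. These 3 windows run from CpG-rich to CpG-poor, and that of GRAMD1C is at an internal start. They are from RefSeq (GRCh38.p14), run from 250 bases before the start to 50 bases after it, 5′ to 3′ on the gene's strand, and have each CpG in capitals. MYLIP lies at chr6:16128836-16129135 (plus strand), APOE at chr19:44905546-44905845 (plus strand) and GRAMD1C at chr3:113897250-113897549 (plus strand).
MYLIP: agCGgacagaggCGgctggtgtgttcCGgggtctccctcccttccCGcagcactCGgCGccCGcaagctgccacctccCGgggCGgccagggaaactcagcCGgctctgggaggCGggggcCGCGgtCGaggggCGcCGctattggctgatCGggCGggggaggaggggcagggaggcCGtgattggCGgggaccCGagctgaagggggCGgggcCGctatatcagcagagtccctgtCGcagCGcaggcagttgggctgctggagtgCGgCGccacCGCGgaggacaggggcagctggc
APOE: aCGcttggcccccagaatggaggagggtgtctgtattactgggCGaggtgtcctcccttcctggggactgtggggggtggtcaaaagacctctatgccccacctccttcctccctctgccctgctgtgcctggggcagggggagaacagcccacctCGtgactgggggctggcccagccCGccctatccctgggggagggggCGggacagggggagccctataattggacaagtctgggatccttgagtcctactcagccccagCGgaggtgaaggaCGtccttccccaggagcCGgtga
GRAMD1C: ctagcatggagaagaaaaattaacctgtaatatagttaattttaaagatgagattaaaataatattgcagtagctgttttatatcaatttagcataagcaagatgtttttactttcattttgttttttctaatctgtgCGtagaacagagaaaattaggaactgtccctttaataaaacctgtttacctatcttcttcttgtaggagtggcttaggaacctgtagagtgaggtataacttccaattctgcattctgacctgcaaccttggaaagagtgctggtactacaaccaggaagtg

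The MYLIP window held 29 CpG dinucleotides. Of 35116 annotated human windows of the same length, with a median of 14, 77.58% held at most as many. LPCAT3 had 30 (chr12:7018427-7018726, minus strand) and PLTP had 17 at its outermost start (chr20:45912106-45912405, minus strand). APOE had 8 and GRAMD1C had 1, and 10.97% of all windows held at most 1. The GRAMD1C window is an internal annotated start, 69308 bases inside the outermost annotated end of the gene, and the window at that outer end was not analysed here. CpG content at these starts thus ran from 8 to 30 in the 4 LXR targets. DNA methylation was not measured on these arrays.

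**Figure D1:**
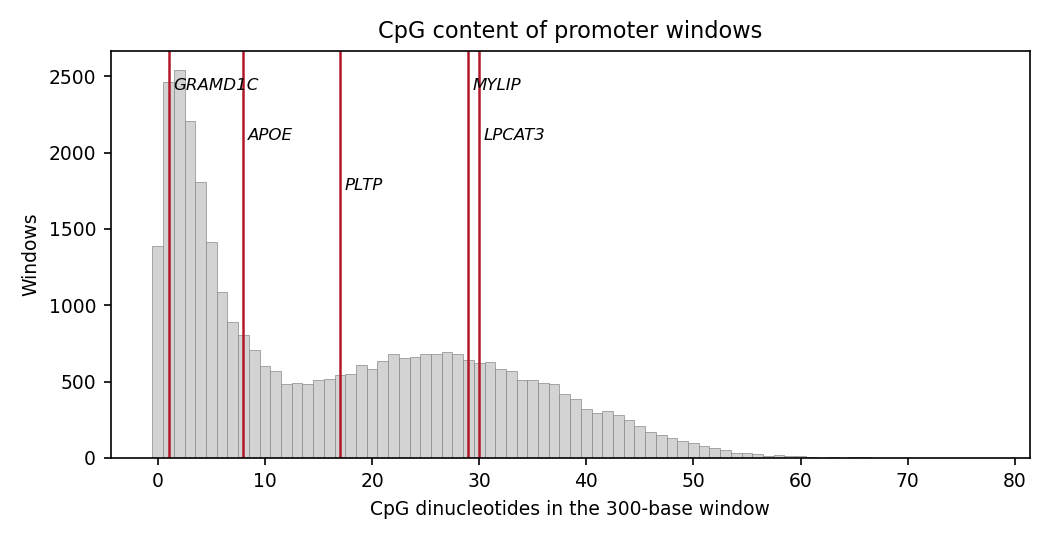
Histogram of CpG dinucleotides per 300-base window around the starts of annotated human genes (horizontal axis, number of CpG; vertical axis, number of windows), with red lines at the 5 genes at the start nearest the annotated gene end. GRAMD1C lies at 1 CpG, APOE at 8, PLTP at 17, MYLIP at 29 and LPCAT3 at 30. The GRAMD1C window is an internal start, 69308 bases inside the gene, and its outer start was not analysed here.

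The LXR response element was searched as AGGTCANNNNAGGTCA, a pair of AGGTCA repeats with 4 bases between them, on both strands. None of the windows of the 5 genes held it exactly, and 7 of the 35116 windows (0.02%) did. The best match in each of the 3 windows shown had 4 mismatches among the 12 fixed bases, a level that 72.54% of all windows reach. A single AGGTCA was in the windows of 1 of the 5 genes, GRAMD1C, where it lay on the minus strand just after the start, and in 13.83% of all windows. A window of this size leaves out enhancers, so these matches describe only the letters in it.

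MYLIP, the ubiquitin ligase, measured 6.65 and 6.38 in LX2 with CM272, against 5.61 and 5.51 in LX2 control (log2 values). It measured 5.60 and 5.79 in HepG2 with CM272, against 5.76 and 5.78 in HepG2 control. The LX2 arrays with CM272 thus stood apart from all 6 others, which lay within a narrow band. The LX2 difference was 0.96 ± 0.15 (log2, SE of the fit, 95% interval 0.62 to 1.29), a 1.94-fold higher level, and leaving out 1 array at a time moved it between 0.82 and 1.09. The HepG2 difference was -0.08, with an interval of -0.41 to 0.26. The groups ranked LX2 with CM272, HepG2 control, HepG2 with CM272 and LX2 control, and the last 3 overlapped with their neighbours in that order. The HepG2 difference minus the LX2 difference was -1.04, with an interval of -1.51 to -0.56.

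PLTP, the phospholipid transfer protein of plasma, measured 8.53 and 8.65 in LX2 with CM272, against 8.12 and 8.04 in LX2 control. It measured 7.86 and 7.96 in HepG2 with CM272, against 7.86 and 7.72 in HepG2 control. Both LX2 arrays with CM272 were above both control arrays, while in HepG2 the groups came within less than their own SD of each other without overlapping. The groups ranked LX2 with CM272, LX2 control, HepG2 with CM272 and HepG2 control. The LX2 difference was 0.51 ± 0.14 (log2, SE, interval 0.20 to 0.81), a 1.42-fold higher level. The HepG2 difference was 0.12, with an interval of -0.18 to 0.43. The HepG2 difference minus the LX2 difference was -0.38, with an interval of -0.82 to 0.05.

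APOE, the remnant particle apolipoprotein, measured 4.86 and 4.78 in LX2 with CM272, against 4.25 and 4.59 in LX2 control. It measured 6.22 and 6.15 in HepG2 with CM272, against 6.07 and 6.05 in HepG2 control. The arrays of each line did not overlap between CM272 and control, and all HepG2 arrays lay above all LX2 arrays. All LX2 values lay near log2 4, the floor used here for dim genes. The LX2 difference was 0.40 ± 0.15 (log2, SE, interval 0.06 to 0.74), and it rested on the spread of the control arrays. Without LX2 control replicate 1 it was 0.22, and without LX2 control replicate 2 it was 0.57. The HepG2 difference was 0.12, with an interval of -0.22 to 0.47.

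LPCAT3, the acyltransferase, measured 9.81 and 10.00 in LX2 with CM272, against 9.76 and 9.63 in LX2 control. It measured 9.25 and 9.46 in HepG2 with CM272, against 8.90 and 9.07 in HepG2 control. This gene was higher with CM272 in every array of both lines, and the 4 groups ranked LX2 with CM272, LX2 control, HepG2 with CM272 and HepG2 control without overlap. The LX2 difference was 0.21 (log2, interval -0.13 to 0.55) and the HepG2 difference 0.37 (interval 0.03 to 0.71). The HepG2 difference minus the LX2 difference was 0.16, with an interval of -0.32 to 0.64. These values kept their sign when 1 array was left out, but their size moved. The HepG2 difference ran from 0.27 to 0.47. The LX2 difference was 0.11 without LX2 CM272 replicate 2 and 0.14 without LX2 control replicate 2, and the difference between the lines ran from 0.0585 (without HepG2 CM272 replicate 2) to 0.26 (without HepG2 CM272 replicate 1).

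GRAMD1C, the Aster-C sterol carrier, measured 4.69 and 4.67 in LX2 with CM272, against 5.88 and 5.86 in LX2 control. It measured 3.02 and 2.99 in HepG2 with CM272, against 2.85 and 3.07 in HepG2 control. The LX2 groups did not overlap and each had an SD of 0.01, while all HepG2 arrays lay under the log2 value of 4 used here as the floor, so GRAMD1C entered the fit only through LX2. The LX2 difference was -1.19 ± 0.14 (log2, SE, interval -1.50 to -0.88). The HepG2 difference of 0.04 is between values under that floor and says nothing of regulation in that line.

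**Figure D2:**
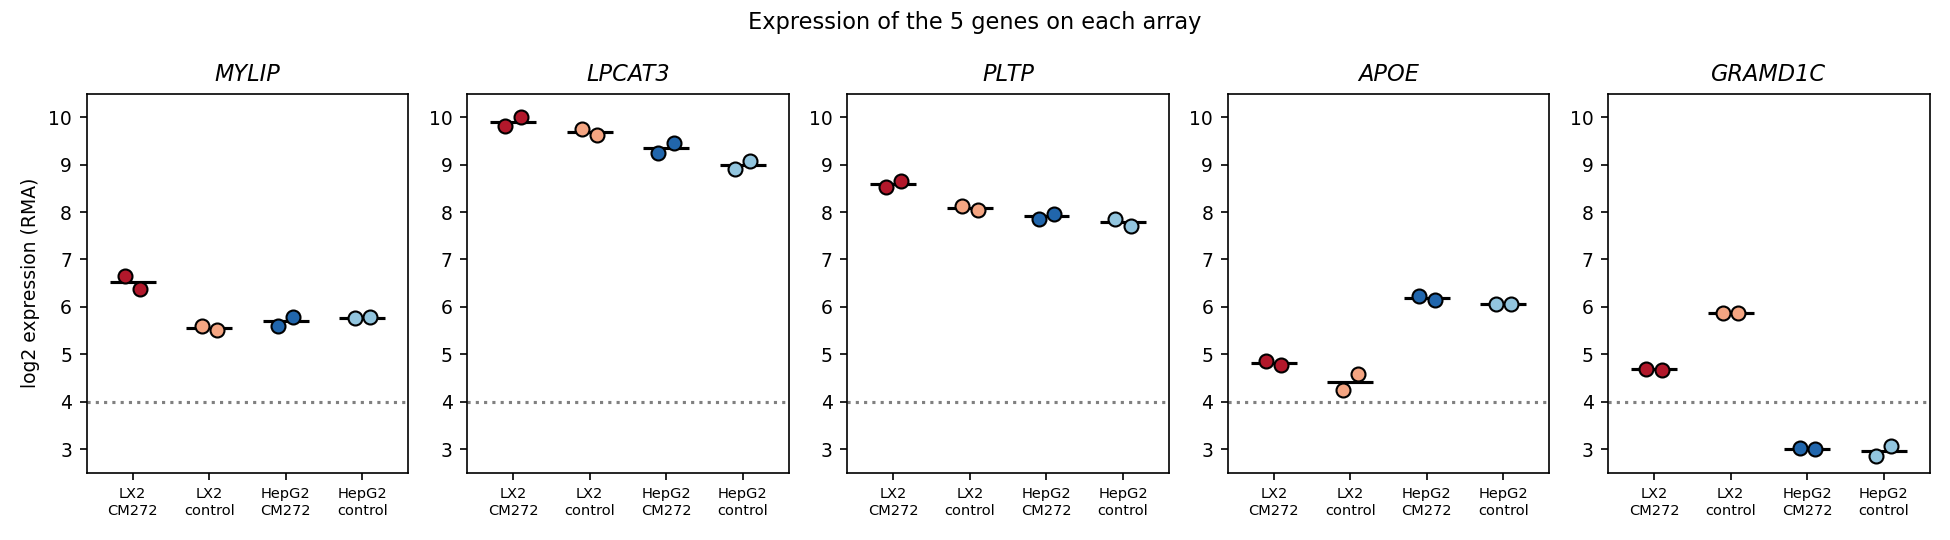
Log2 expression (vertical axis) of the 5 genes on each array, with points for the 2 arrays of each group, short lines for group means and the dotted line at the floor of log2 4. MYLIP, PLTP and APOE are higher in LX2 with CM272 than in LX2 control, GRAMD1C is lower there, and GRAMD1C lies under the floor in HepG2.

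**Figure D3:**
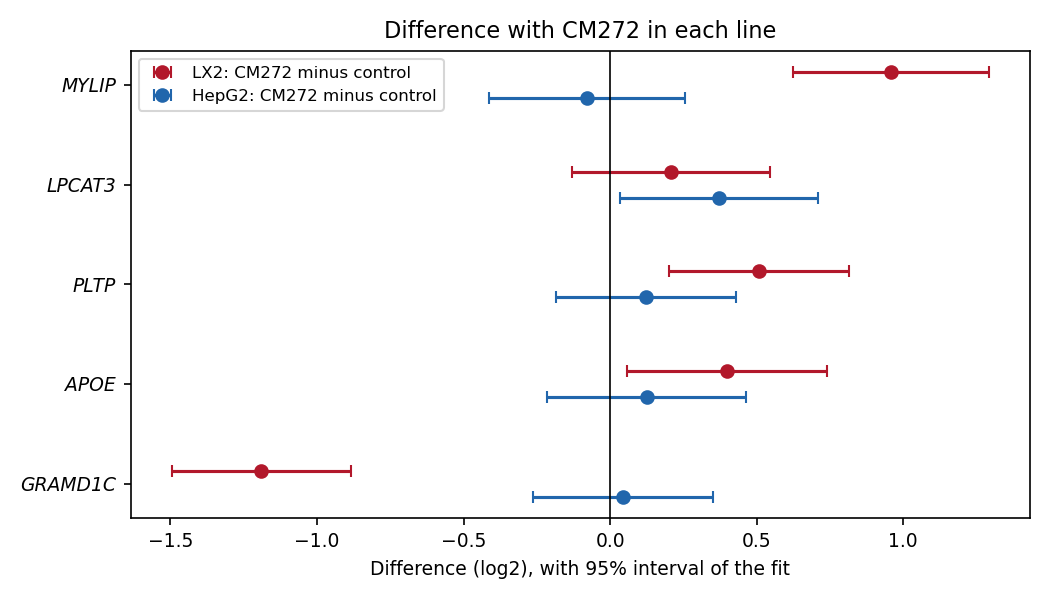
Difference with CM272 (log2, horizontal axis) for the 5 genes in LX2 (red) and HepG2 (blue), with the 95% interval of the fit as bars. In LX2 MYLIP lies farthest above 0 (0.96) and GRAMD1C farthest below (-1.19), while the HepG2 differences lie between -0.08 and 0.37, with GRAMD1C under the floor of log2 4 there. The genes were selected on these values, so the bars are a description.

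The arrays with CM272 did not overlap the control arrays for 5 of the 5 genes in LX2, where 52.1% of tested genes did not overlap, and for 3 of 5 in HepG2 (LPCAT3, PLTP and APOE), where 48.9% did not. As the genes were selected on these differences, nothing is read from those counts.

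Between the control groups, the 5 genes went both ways. APOE was higher in HepG2 control than in LX2 control by 1.64 (log2), a 3.12-fold higher level. Its LX2 control values, 4.25 and 4.59, lay near the floor of log2 4. GRAMD1C was lower in HepG2 control. Its log2 difference of -2.91 has HepG2 control values under the floor, so its size is uncertain. LPCAT3 and PLTP were lower in HepG2 control, with log2 differences of -0.71 and -0.30, and MYLIP differed by 0.22. These values stand against a median of -0.27 over all tested genes in this comparison, where 17.7% of genes were called higher and 40.5% lower in HepG2 control. After quantile normalization of the 8 arrays, the calls split into 3206 higher and 3571 lower, against 2161 and 4952 as deposited. The PLTP difference was then -0.03, within the SD of the control arrays, and that of MYLIP was 0.47, so both differences between the lines depend on the scaling.

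Beside these 5 genes stand 100 tested genes from 9 lists of LXR and sterol pathway members, taken from textbook pathway membership. The lists were written with earlier results of these data known, so their direction is no independent support for the 5 genes. In LX2 with CM272, 1 of them rose and 14 fell at an adjusted p under 0.05 (limma, Benjamini-Hochberg over 12239 genes), where 3.79% of all tested genes were called higher and 4.63% lower. Their median difference was -0.14 (log2), against -0.02 over all tested genes. In HepG2 with CM272, limma called 0 of the 100, where 0.00817% of all tested genes were called, and 22 had an unadjusted p under 0.05, as did 1403 of all 12239 genes. The LX2 calls changed when 1 array was left out, also when it was a HepG2 array, which leaves the LX2 differences themselves unchanged. Each such fit has fewer arrays to estimate the spread from. Without LX2 control replicate 1 there were 0 higher and 1 lower, without LX2 control replicate 2 there were 0 of either, without LX2 CM272 replicate 1 there were 0 and 7, and without LX2 CM272 replicate 2 there were 3 and 17. Without either HepG2 control array there were 0 higher and 6 lower. Over all genes, the calls without those 4 LX2 arrays were, in the same order, 81 higher and 16 lower, 50 and 5, 420 and 406, and 928 and 1568, against 464 and 567 with all arrays.

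**Figure D4:**
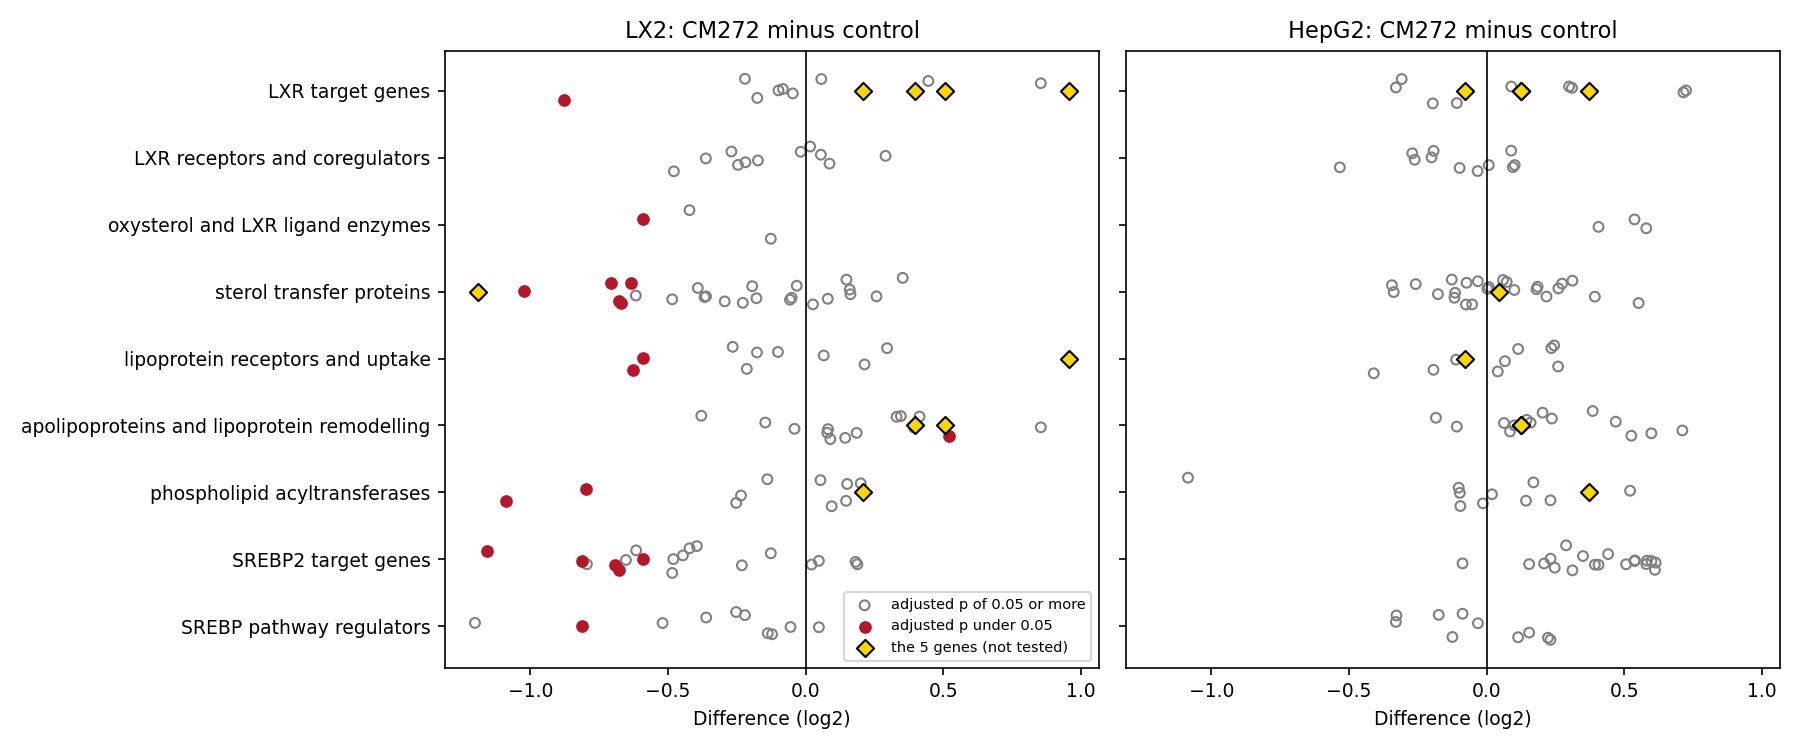
Difference with CM272 (log2, horizontal axis) of every tested gene of the 9 pathway lists (rows) in LX2 (left panel) and HepG2 (right panel), with filled red points for adjusted p under 0.05, open circles for other genes and yellow diamonds for the 5 genes, which were not tested. In LX2 the filled points lie mostly below 0, and in HepG2 there are none.

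The LXR target list held 9 other tested genes, and 1 of them, SCD, a desaturase that makes monounsaturated fatty acids, fell in LX2 by 0.88 (log2 difference -0.88, adjusted p = 0.0117, limma). That call was lost without either LX2 control array. Of all tested genes, 4.63% were called lower and 3.79% higher in LX2. The median difference of the 9 was -0.08 (log2), against -0.02 over all tested genes. SREBF1, the lipid synthesis factor switched on by LXR, had -0.22, and APOC1, an apolipoprotein encoded beside APOE, had 0.85. FASN, MLXIPL, PNPLA3, EEPD1 and VEGFA lay between -0.18 and 0.06, and MERTK had 0.45. APOC1 had an adjusted p of 0.0519 in LX2 (limma), and its LX2 levels were all under the floor. VLDLR, a lipoprotein receptor that MYLIP targets, differed by -0.27. Limma called 0 of 11 LXR coregulators in LX2, 2 had an unadjusted p under 0.05 (3098 of all 12239 genes did), and the largest differences were TBL1XR1 at -0.48 and NCOA6 at -0.36. ABCA1, ABCG1, LRP8 and the receptors NR1H2 and NR1H3 were not analysed here.

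The sterol transfer list had 24 other tested genes, of which 5 fell in LX2 and none rose. Of all tested genes, 4.63% were called lower and 3.79% higher there. GRAMD2B, which shares the GRAM domain with GRAMD1C, fell by 1.02 (log2 difference -1.02), and GRAMD1B, or Aster-B, fell by 0.67 (-0.67). Sterol transfer was not measured, so a place in the list says nothing of what GRAMD2B carries. OSBPL11 and OSBPL6, of the oxysterol-binding protein family, fell by 0.71 and 0.63 (-0.71 and -0.63), and STARD4, which carries cholesterol through the cytosol, fell by 0.68 (-0.68). Adjusted p ran from 0.0133 for GRAMD2B to 0.0473 for GRAMD1B (limma). GRAMD1A, or Aster-A, had a difference of -0.19 (adjusted p = 0.537, limma). In HepG2 none of the 24 was called, and the largest value was that of ANXA6, a membrane-binding annexin, at 0.55. Without LX2 control replicate 1 or replicate 2 there were 0 lower calls in this list, and without LX2 CM272 replicate 1 there was 1.

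**Figure D5:**
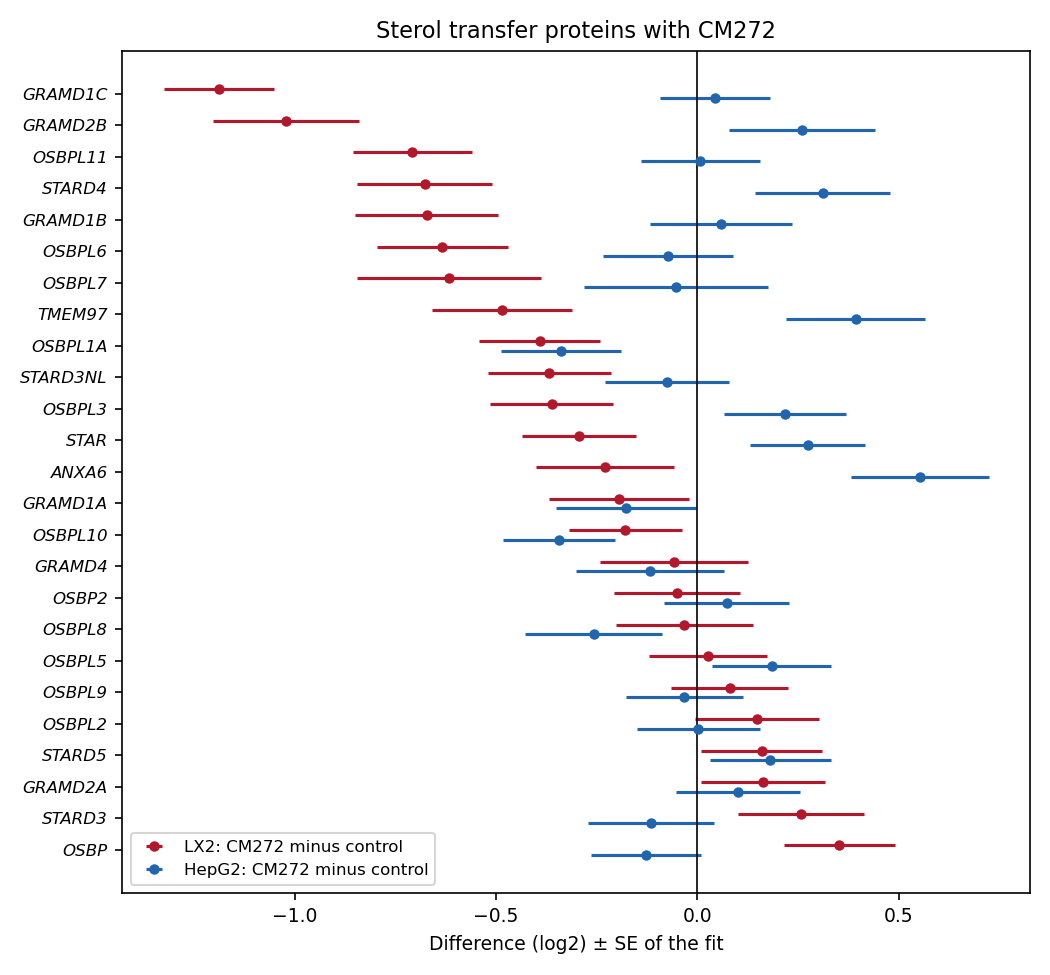
Difference with CM272 (log2, horizontal axis) of GRAMD1C and the 24 other tested genes of the sterol transfer list (rows, ordered by the LX2 difference). LX2 is red and HepG2 blue, with SE of the fit as bars. GRAMD1C leads the list at -1.19 in LX2 as a description, with GRAMD2B next at -1.02, while HepG2 differences stay between -0.34 and 0.55.

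The SREBP2 target list had 19 tested genes, of which 5 fell in LX2 and none rose, where 4.63% of all tested genes were called lower. SQLE, which makes squalene epoxide, fell by 1.16 (log2 difference -1.16, adjusted p = 0.00484, limma), INSIG1, which holds SREBP in the endoplasmic reticulum, by 0.81 (-0.81), and HMGCS1, of the mevalonate pathway, by 0.69 (-0.69). MSMO1 fell by 0.59 (-0.59), and STARD4 is also in this list. The list's median difference was -0.48 in LX2 and 0.41 in HepG2. In HepG2 no gene of the list was called, where 0.00817% of all tested genes were. An unadjusted p under 0.05 (limma) was found for 12 of the 19 in LX2 and 9 in HepG2, against 3098 and 1403 of all 12239 genes. As the list was written with earlier results known, these counts are a description. The differences between the lines were called for SQLE, HMGCS1, MSMO1 and INSIG1, and also for SCD and MBOAT1, all higher in HepG2, where 0.36% of tested genes were called higher and 0.825% lower in that comparison. INSIG1 and MBOAT1 lay under the floor in HepG2. Without LX2 control replicate 1 there was 1 lower call in LX2, without LX2 control replicate 2 there were 0, and without LX2 CM272 replicate 1 there were 3. The 6 calls between the lines became 0 without either LX2 control array or HepG2 control replicate 1, and 1 without HepG2 control replicate 2 or HepG2 CM272 replicate 2.

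Among 10 acyltransferases related to LPCAT3, MBOAT1 and LPGAT1, which reacylate lysophospholipids, fell by 1.09 and 0.80 in LX2 (log2 differences -1.09 and -0.80). Of all tested genes, 3.79% were called higher and 4.63% lower in LX2. LPCAT1 and LPCAT2 had values of -0.23 and 0.09 in LX2, where LPCAT2 lay under the floor. CLU, or apolipoprotein J, was the only one of 14 apolipoprotein and lipoprotein genes that rose in LX2, by 0.52 (adjusted p = 0.0451, limma). Of the lipoprotein receptor and uptake genes, LRP6, a Wnt co-receptor, and RNF130, an E3 ubiquitin ligase, fell, by 0.59 and 0.63 (log2 differences -0.59 and -0.63), and 7 of 9 did not pass. None of these calls remained without LX2 control replicate 2. In HepG2 none passed, and the largest values of the 9 lists were GPAT3 at -1.09 and PNPLA3 at 0.72.

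The genes with the pattern most like that of each of the 5, by root-mean-square difference of values centred over 8 arrays, were chosen from all tested genes. For MYLIP it was GCDH (0.0978, r = 0.9713), for LPCAT3 TEF (0.0882), for PLTP TCF21 (0.0518), for APOE GPR160 (0.105) and for GRAMD1C LINC00842 (0.104). These arrays share their normalization and RNA, so the likeness is a description. The nearest named neighbours of the 5 genes did not pass in LX2. APOC1, beside APOE, differed by 0.85 (adjusted p = 0.0519, limma), with its LX2 levels under the floor. PCIF1, beside PLTP, differed by 0.53 (adjusted p = 0.0675, limma).

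The lines carried the markers of their labels in part. In HepG2, 11 of 12 hepatocyte markers had a mean over log2 8 and in LX2 none did, while 4 of 9 stellate markers did in LX2 and 1 in HepG2. That 1 was FN1, fibronectin, with a mean of 12.83 in HepG2 control against 11.45 in LX2 control. In HepG2 control, 2 of 8 leukocyte markers (LYZ and CD68) and 3 of 7 cholangiocyte markers (SPP1, SOX9 and EPCAM) were also over log2 8. LUM and DCN, proteoglycans of stellate cells, lay under the floor in LX2. In LX2 with CM272, of 7 tested stellate markers DES, the muscle filament desmin, rose by 1.25 and LOX, a collagen cross-linking enzyme, fell by 1.01 (log2 difference -1.01), and the list's median difference was -0.38. There, 1 of 7 tested leukocyte markers (CD14), 1 of 6 endothelial (FLT1) and 1 of 7 cholangiocyte markers (KRT19) rose, by 1.12, 1.55 and 0.67 (log2). Of all tested genes, 3.79% were called higher and 4.63% lower in LX2. The medians of the leukocyte, endothelial and cholangiocyte lists were 4.58, 4.43 and 4.91 in LX2 with CM272. They were 4.43, 4.43 and 4.57 in LX2 control. PECAM1 and EPCAM had means under the floor in both. The leukocyte marker CD68 and the cholangiocyte marker SOX9 were bright, with means of 10.19 and 9.50 in LX2 with CM272. In LX2 control their means were 10.19 and 8.91. The part of these lists in the differences above was not tested. Replicates of LX2 with CM272 correlated at r = 0.9779, below the 0.9884 to 0.9928 of the other groups.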

How the data were processed

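Total RNA (300 ng per sample) from 8 samples of LX2 and HepG2 cells seeded at 200000 per well was hybridised to 8 Affymetrix arrays. The deposited table holds log2 values, which the authors summarised with RMA per the submitters' processing notes. The RMA version and the genome build of the array were not given in the sources used here. Arrays give no counts, so precision is limited by their number. The values, from 0.49 to 14.07, were used as deposited. RMA normalizes between arrays, which can remove part of a change shared by most genes, and it compresses folds of dim genes. The medians of the deposited arrays still ran from 4.19 to 4.54.

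Of 48416 probe sets, 16098 carried a symbol, and where a symbol had several, the brightest on average stood for it (14884 symbols). A gene was tested if both arrays of some group exceeded log2 4 (12239 genes). Every difference came from a single limma model (limma 3.58.1, R 4.3.3) of the 4 group means over all 8 arrays, with default empirical Bayes variances. Tests were two-sided, with Benjamini-Hochberg adjustment over 12239 genes and a threshold of 0.05. The fit was tested on simulated data. An exact permutation test of 2 arrays against 2 cannot go below p = 0.333, so none is given.

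The 5 genes and the 9 pathway lists were chosen with earlier results of these data known, so the 5 genes have no p. Of 180 other list genes, 106 were named on the array and 100 were tested; the rest were not analysed here. Named genes were the 5, list genes past the threshold (up to 6 a list, or up to 2 of the largest difference where none passed), a fixed set of LXR, Aster, acyltransferase and SREBP2 genes, the 3 of most alike pattern to each of the 5 (the first is printed) and nearest neighbours. Marker genes of other cell types were named after their values were seen. Start windows were matched by symbol for 5 of 5 genes in RefSeq (GRCh38.p14). Figures were drawn with matplotlib 3.10.9. Alternatives changed the normalization, the filter on dim genes, the probe set rule, the samples fitted, the variance model, array weights and the replicate block, and left out each array in turn.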

Additional observations from a re-analysis of the deposited data

Results flagged for a closer look

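For 6 pathway genes CM272 had an effect that differed between the lines by the test of the difference itself (HepG2 difference minus LX2 difference, log2, limma). SQLE differed by 1.76 (adjusted p = 0.0085), MBOAT1 by 1.61 (0.0262), HMGCS1 by 1.28 (0.0337), SCD by 1.19 (0.0367), MSMO1 by 1.17 (0.0293) and INSIG1 by 0.97 (0.0444). SQLE, HMGCS1, MSMO1 and SCD were lower in both LX2 arrays with CM272 than in both LX2 controls, and higher in both HepG2 arrays with CM272 than in both HepG2 controls. INSIG1 and MBOAT1 lay under the floor of log2 4 in HepG2, where they differed by 0.15 and 0.52. Those values enter the difference between the lines, so its size is uncertain for both genes.

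STARD4 and RNF130 moved in opposite directions in every array of the lines, by 0.99 and 0.89 (log2), and the test of the difference did not pass (adjusted p = 0.0808 and 0.0874, limma). GRAMD1C differed by 1.23 between the lines, a description of a gene selected on its LX2 values, with HepG2 under the floor. Groups of 2 arrays allow no search for outlying samples.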

How the results depend on the processing

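The comparison of the control lines moved with the scaling for all 5 genes. After quantile normalization HepG2 control minus LX2 control was 1.85 for APOE, -2.70 for GRAMD1C, -0.48 for LPCAT3, 0.47 for MYLIP and -0.0323 for PLTP, and with arrays centred on their medians 1.87, -2.68, -0.48, 0.44 and -0.0706 in that order. The PLTP difference in LX2 was 0.60 after quantile normalization. Leaving out 1 array at a time gave 1.47 to 1.81 for APOE and -3.02 to -2.80 for GRAMD1C between the control lines, 0.22 to 0.57 for APOE and 0.82 to 1.09 for MYLIP in LX2, and -0.0653 to 0.154 for GRAMD1C in HepG2. For the difference between the lines it gave -0.45 to -0.10 for APOE, -1.17 to -0.90 for MYLIP and 1.12 to 1.34 for GRAMD1C. With a filter at log2 6, GRAMD1C was not tested.

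The pathway calls in LX2 (1 higher, 14 lower) were 0 higher with centred arrays, without a filter, with LX2 fitted alone or with array weights, and 2 with the filter at log2 6 or a trended, robust variance. The lower calls were 4 with LX2 alone and 3 with array weights. Leaving out 1 array gave 0 to 3 higher and 0 to 17 lower. The cause was not tested. Over all genes, LX2 calls were 464 higher and 567 lower, against 136 and 71 with LX2 alone, 139 and 144 with array weights, 336 and 766 with centred arrays, 426 and 847 with the filter at log2 6, and 543 and 830 with the trended variance, and they ran from 50 to 928 higher and from 5 to 1568 lower with 1 array left out. Calls between the lines were 44 and 101, against 169 and 202 with the filter at log2 6, 120 and 166 with the trended variance and 19 and 60 without a filter. Same-numbered arrays had deviations correlated at -0.05 to 0.08, so no strong effect shared by replicate number was seen. Whether same-numbered samples were handled together cannot be told from this. With the replicate as a block the LX2 calls were 419 higher and 512 lower.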
